A study of Mus musculus with 6 samples.

Results

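Star miRNAs are the mature strands whose name ended in an asterisk in miRBase 14, the catalogue behind the array used here. All mouse names ending in an asterisk were taken, except those of let-7 and of miR-99, miR-140, miR-181, miR-199, miR-214, miR-299, miR-322, miR-455 and miR-503, which left 99 of the 690 mouse miRNAs on the array. Mice of the strain C57BL/6 were 12 days old, and their femoral growth plates were dissected into a proliferative, a prehypertrophic and a hypertrophic zone, each measured on 2 one-colour arrays. No mutant allele, transgene or treatment is named for any group, and all groups share strain, age and tissue. Each array received 100 ng of total RNA from a pool of 5 growth plates. The labels do not say whether the pools came from separate animals, so p-values measure only the spread between these 6 samples. The animals behind each pool are likewise not given, and a dissected zone is not a pure cell population.

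A miRNA gene is transcribed as a hairpin, which is cut into a short duplex of 2 strands. One strand, the main arm, is usually kept by an Argonaute protein and guides it to target mRNAs through its seed, bases 2 to 8. The partner was called the star or passenger strand, since it was recovered less often and is usually degraded. Either strand can be loaded, and some star strands are stable and active, so later names give only the arm of the hairpin (5p or 3p). In the growth plate, chondrocytes divide, stop dividing and enlarge as they pass through the 3 zones. The enzyme that cuts hairpins into such duplexes, Dicer, is needed for that passage.

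The tissue label was checked against cartilage miRNAs. Of 6 names (miR-140, miR-455 and miR-675 with both arms of each), 5 were well above background on at least 1 proliferative and 1 prehypertrophic array and 4 on a hypertrophic array. Between 24.2% and 27.9% of miRNA spots per array carried the scanner's flag for being well above background. One slide with one scan date held all arrays. Its row 1 held the hypertrophic pair and row 2 the prehypertrophic pair, with 1 proliferative array in each, so the row and the zone cannot be told apart for the former pairs without the proliferative arrays.

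The mature sequences of the star miRNAs that were detected are shown because the results below turn on which strands gave signal. The scanner files name miRNAs without sequences, so each star name was carried by hand to its current arm name and the sequence was read from RefSeq (GRCm38.p6). In this way 80 of the 99 were matched, among them 10 of the 12 that entered the test. No sequence is given for miR-712*, nor for miR-92a*, a name that could stand for either of a pair of loci. Capitals mark the seed.
miR-483*: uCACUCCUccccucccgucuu
miR-17*: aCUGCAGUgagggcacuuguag
miR-431*: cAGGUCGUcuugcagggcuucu
miR-433*: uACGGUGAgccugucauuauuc
miR-877*: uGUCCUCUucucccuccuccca
miR-872*: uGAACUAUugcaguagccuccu
miR-1982*: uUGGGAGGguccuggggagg
miR-135a*: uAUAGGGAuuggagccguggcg
miR-193*: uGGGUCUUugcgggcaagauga
miR-295*: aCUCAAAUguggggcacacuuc

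The 10 seeds were all different. One of them, that of miR-17*, also stood in another matched star miRNA, miR-20b*, which was well above background on no array. G and C made up 45.5% to 70.0% of these 10 sequences, with a median of 56.8%, against 31.8% to 63.6% and a median of 45.5% in the 70 matched star miRNAs that did not enter the test. The lowest values among the detected were those of miR-433* and miR-872*, and the highest was that of miR-1982*, in which 60.0% of bases were G. miR-483* and miR-877* were instead rich in C, at 57.1% and 54.5%. Of the 70 others, 9 had a G and C content at or above the median of the 10. This is a description of sequences and was not tested.

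**Figure D1:**
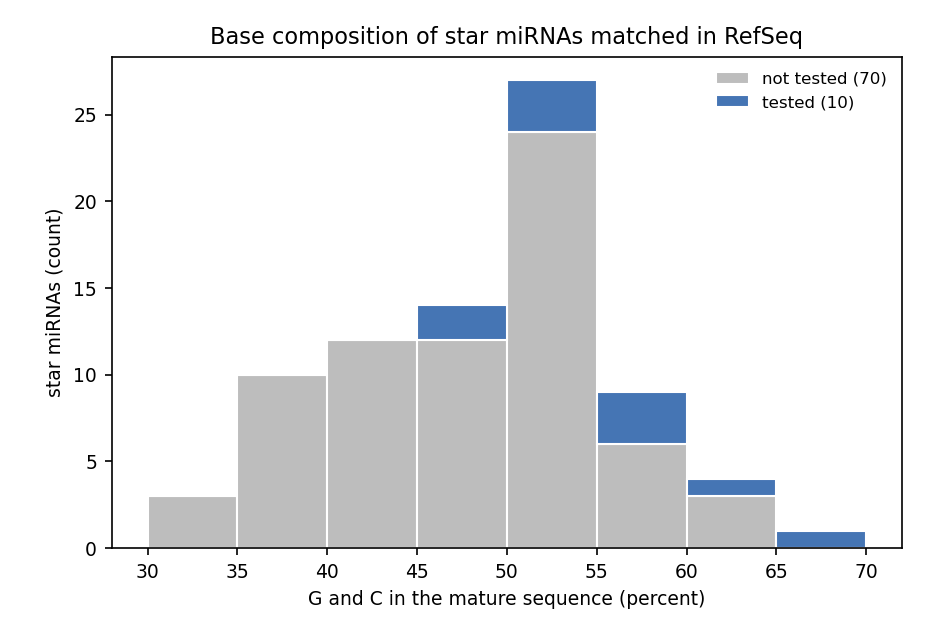
Count of star miRNAs by the percent of G and C in the mature sequence, for the 80 matched in RefSeq, stacked by whether the miRNA entered the test (10) or not (70). The 10 detected sequences lie at 45.5% and above, and the others reach down to 31.8%.

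Few star miRNAs gave signal in any zone. A miRNA was represented by its brightest probe, and it counted as well above background on an array where most of the probe's unflagged spots carried that flag. Both proliferative arrays showed 12 of the 99 star miRNAs well above background, both prehypertrophic arrays 10 and both hypertrophic arrays 11. All 6 arrays showed 10, at least 1 array showed 16, and 83 were seen on none. Of the 93 main arms on the array, 23, 30 and 29 were detected in this way in the 3 zones, and 36 were above background on at least 1 array. The 12 star miRNAs detected on both arrays of a zone entered the test (12.1%, against 33.3% of main arms, 35.9% of the 574 names without a star and 32.8% of all names). In bulk RNA of a zone, fewer cells of a type and less RNA per cell cannot be told apart.

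The detected strands came from hairpins of several kinds. miR-431*, at chr12:109590502-109590523, and miR-433*, at chr12:109591729-109591750, lie in the imprinted Dlk1-Dio3 region within the span of Rtl1, from whose opposite strand they are transcribed. The star strand miR-483* lies at chr7:142654932-142654952 on the minus strand, within Igf2, the imprinted gene of a growth factor for cartilage and bone. miR-17*, at chr14:115043721-115043742, and miR-92a* belong to the miR-17 to miR-92a cluster, a polycistron linked to proliferation. miR-877*, at chr17:35960731-35960752 within Abcf1, comes from a mirtron, a hairpin made by splicing. miR-872* lies at chr4:94665206-94665227 within Ift74, which encodes a protein of cilium transport, and miR-1982* at chr10:80828808-80828827 within Oaz1, an inhibitor of polyamine synthesis. miR-712* and its partner derive from a spacer of the ribosomal RNA precursor. miR-295* lies at chr7:3220779-3220800, in a cluster known from embryonic stem cells, miR-135a* at chr9:106154179-106154200 and miR-193* at chr11:79711975-79711996. These positions are on GRCm38.p6, and a gene's span does not say whether the hairpin is intronic or exonic.

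Detection of the star strand and of the main arm often differed. The main arm was on the array for 96 of the 99 star miRNAs, with 93 different names, since miR-24-1* and miR-24-2*, miR-30c-1* and miR-30c-2*, and miR-218-1* and miR-218-2* each share one. Both strands entered the test for 3 of the 96, only the star miRNA for 8, only the main arm for 30 and neither for 55. For 7 of the 8 the main arm was well above background on no array. These were miR-17*, miR-135a*, miR-193*, miR-295*, miR-433*, miR-872* and miR-877*. The main arm of miR-431* was well above background on 1 array. The remaining star miRNA tested, miR-1982*, has no main arm of its name on the array. Since different probes bind with different strength, these are counts of detection and not a comparison of the levels of the strands.

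**Figure D2:**
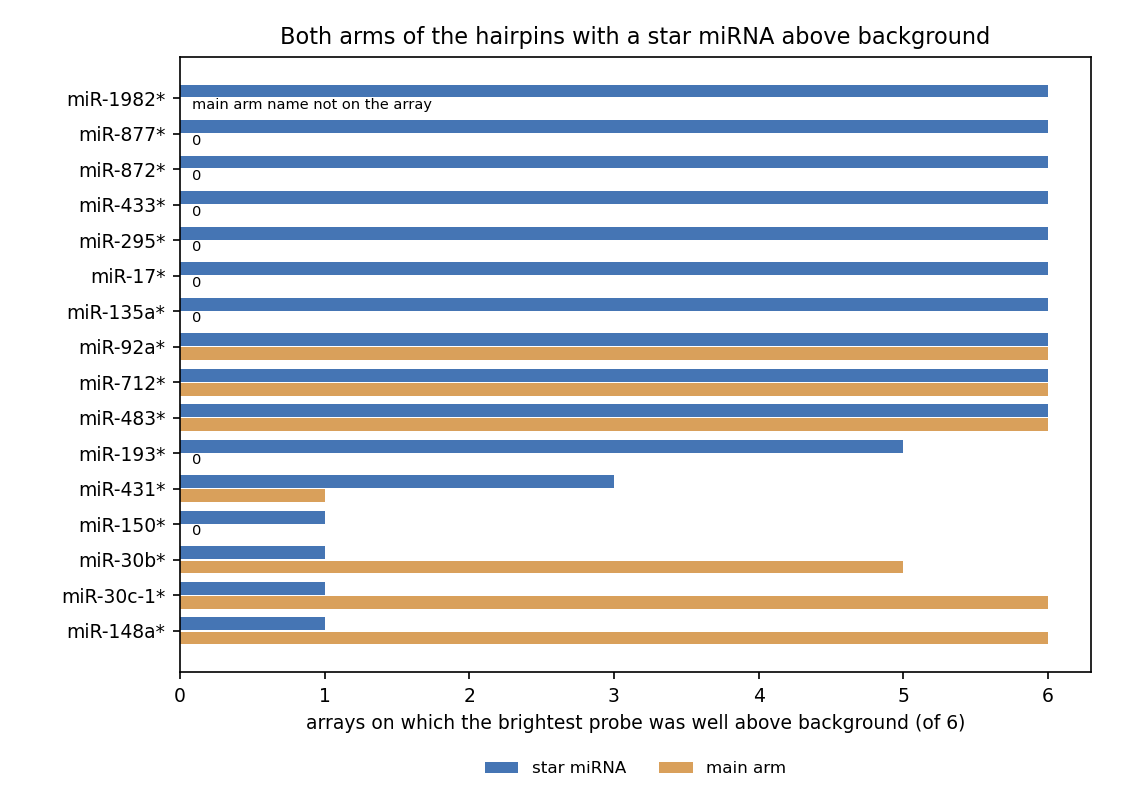
Number of arrays, of 6, on which the brightest probe of the star miRNA (blue) and of the main arm (orange) was well above background, for the 16 star miRNAs above background on at least 1 array. The star miRNAs with a main arm at 0 include 7 with signal on 5 or 6 arrays, and miR-92a*, miR-712* and miR-483* have both strands on all 6.

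Several probes per miRNA were on the array, and they did not always give signal together. All 4 probes of miR-872* and of miR-877*, both probes of miR-17* and of miR-1982*, and 3 of the 4 of miR-295* were well above background on all 6 arrays. For miR-135a* and miR-433* 1 of 4 probes was so, for miR-483* 1 of 2, and for miR-92a* and miR-712* 2 of 4. No probe of miR-193* or miR-431* was so on every array. miR-193* was well above background on 5 arrays, all but the first prehypertrophic one, and miR-431* on both proliferative arrays, 1 prehypertrophic array and no hypertrophic array.

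A further 4 star miRNAs were well above background on 1 array each and did not enter the test. miR-30b* was so on the first proliferative array, at a log2 scaled signal of 5.41, while the other 5 arrays lay at the floor of 3.66, below which signals carry no order. Its second probe was above background on the same array, at 3.83. miR-150*, miR-148a* and miR-30c-1* were so on the first hypertrophic array, at 4.16, 3.72 and 4.19. The main arms miR-30b, miR-148a and miR-30c were well above background on 5, 6 and 6 arrays, and miR-150, a lymphocyte miRNA, on none. Signals seen on 1 array of a zone have no replicate behind them. Of the 83 star miRNAs above background on no array, the brightest probes of 81 stayed under the floor on every array.

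By group, fewer star miRNAs than main arms entered the test. Of the polycistron from miR-17 to miR-92a and its paralogous clusters, 2 of 8 star miRNAs and 7 of 8 main arms entered the test. In the Dlk1-Dio3 region these counts were 2 of 12 and 4 of 12. The star miRNAs tested there, miR-431* and miR-433*, and miR-17* of the first list had main arms that did not enter the test. None of 5 star miRNAs of the miR-30 family, 4 of the miR-23/27/24 clusters, 3 of the miR-29 family or 3 of the list of miR-15, miR-16 and miR-195 entered it, against 2 of 4, 3 of 3, 1 of 3 and 3 of 3 main arms. No star miRNA of these lists passed in any contrast, and of their main arms 3 of the Dlk1-Dio3 region and 1 of the miR-15 list did.

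None of the 12 star miRNAs tested passed by limma with zone as the only factor, in a fit over all 226 miRNAs tested, and 1 of them, miR-483*, passed between the outer zones once arrays were also paired by title number. Between the hypertrophic and proliferative zones 0 of 12 passed at an adjusted p of 0.05, against 33 of the 226 (14.6%). Between the prehypertrophic and proliferative zones 0 of 12 passed, against 5 of 226 (2.21%), and between the hypertrophic and prehypertrophic zones 0 of 12, against 3 of 226 (1.33%). By the F test over the 3 zones 0 of 12 passed, against 18 of 226 (7.96%), with limma adjusted p-values of 0.117 to 0.988. At an unadjusted p under 0.05 the counts among the 12 were 1, 2 and 2 in the 3 contrasts and 1 in the F test. The titles number the arrays 13 to 15 and 16 to 18, each run of numbers with 1 array per zone, and differences between the runs correlated across the 226 miRNAs at 0.59, 0.73 and 0.29 for the 3 pairs of zones. With the run as a block in limma, 1 of the 12 passed between the outer zones (miR-483*, adjusted p = 0.0267), against 46 of 226, and 0 passed in the other contrasts and the F test. The counts at an unadjusted p under 0.05 were then 2, 3 and 5, and 5 in the F test. The 95% intervals without the block had a median reach of 0.61 log2 units to either side of the difference.

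**Figure D3:**
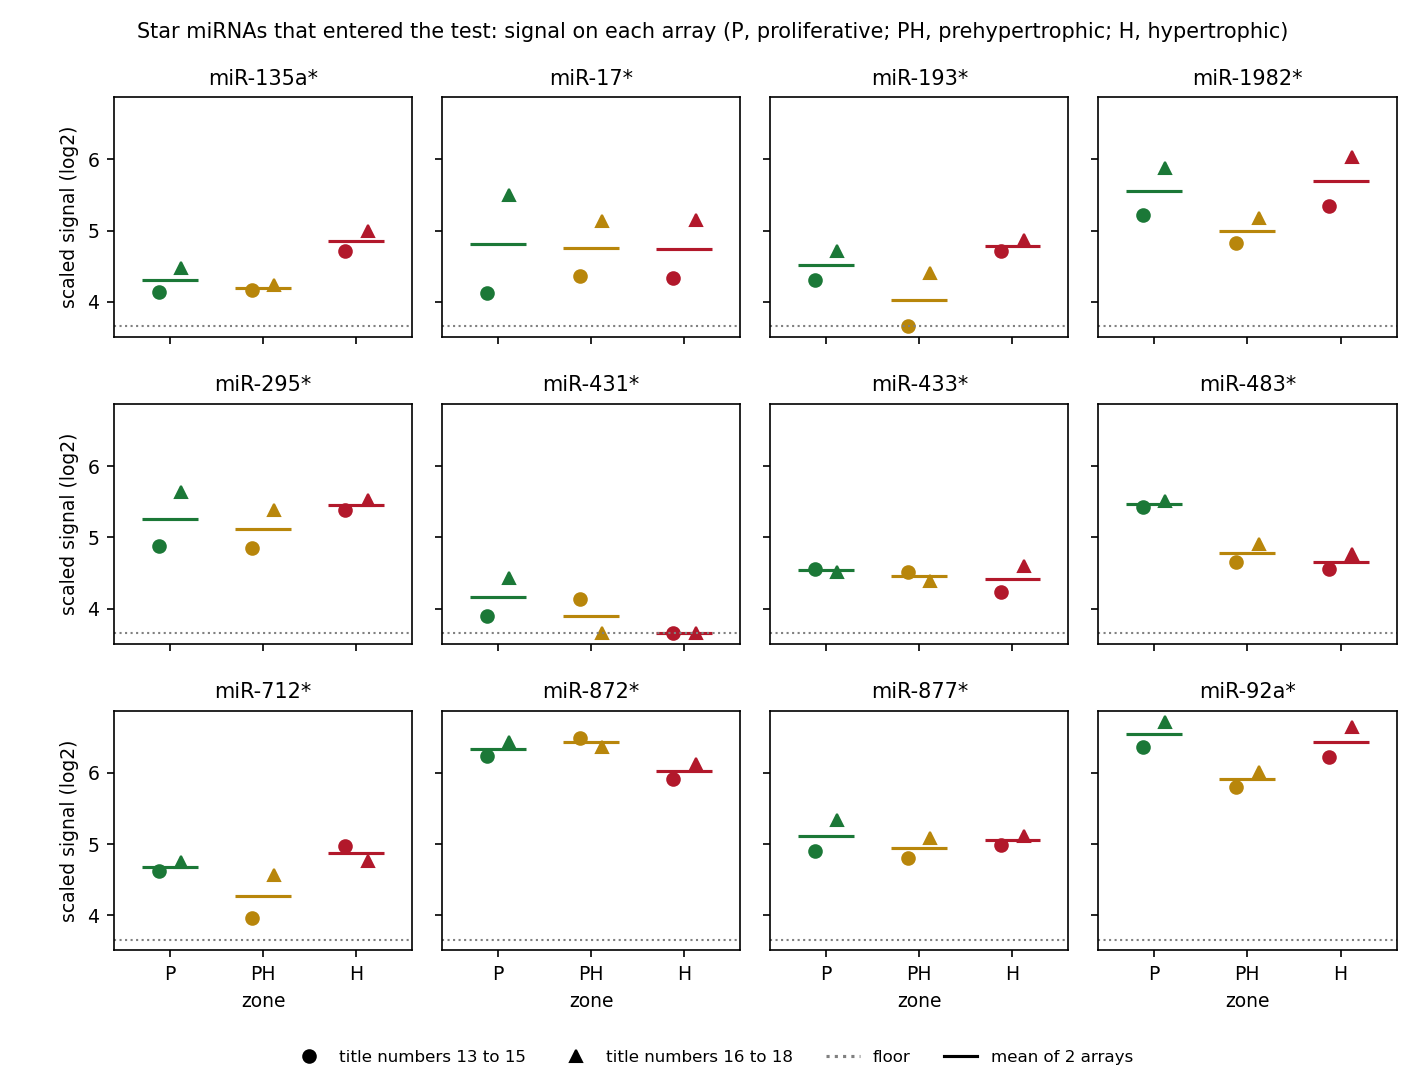
Log2 scaled signal of each of the 12 star miRNAs on each array, by zone (P, proliferative; PH, prehypertrophic; H, hypertrophic). Circles are arrays with title numbers 13 to 15, triangles those with 16 to 18, short lines the mean of the 2 arrays and the dotted line the floor at 3.66. miR-483* is the star miRNA whose proliferative arrays, at 5.43 and 5.51, lie above its 4 other arrays, which reach 4.90.

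The differences were small in either direction. From the proliferative to the hypertrophic zone they ran from -0.80 for miR-483* to 0.54 log2 units for miR-135a*, with a median of -0.06 against 0 over all miRNAs tested, and 5 were positive and 7 negative. The arrays of these zones did not overlap for 5 of the 12 (41.7%) and for 46.9% of all miRNAs tested. At the first step, prehypertrophic minus proliferative, 11 of 12 differences were negative, from -0.69 to 0.09, with a median of -0.22, while 151 of the 226 were negative with a median of -0.14. Of these 12, 8 were negative with the 75th percentile of all probes, median scaling or quantile normalization, and 5 of 11 without scaling, so this sign depends on how arrays are scaled. Of the differences between the outer zones, 8 were positive with median scaling, 10 of 11 without scaling and 0 with normexp background correction. From the prehypertrophic to the hypertrophic zone the differences ran from -0.40 for miR-872* to 0.75 for miR-193*, with a median of 0.22 against -0.03. For these last contrasts the arrays did not overlap for 33.3% and 50% of the 12 and for 36.3% and 66.8% of all. Their shares were thus near or below the background in each contrast.

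**Figure D4:**
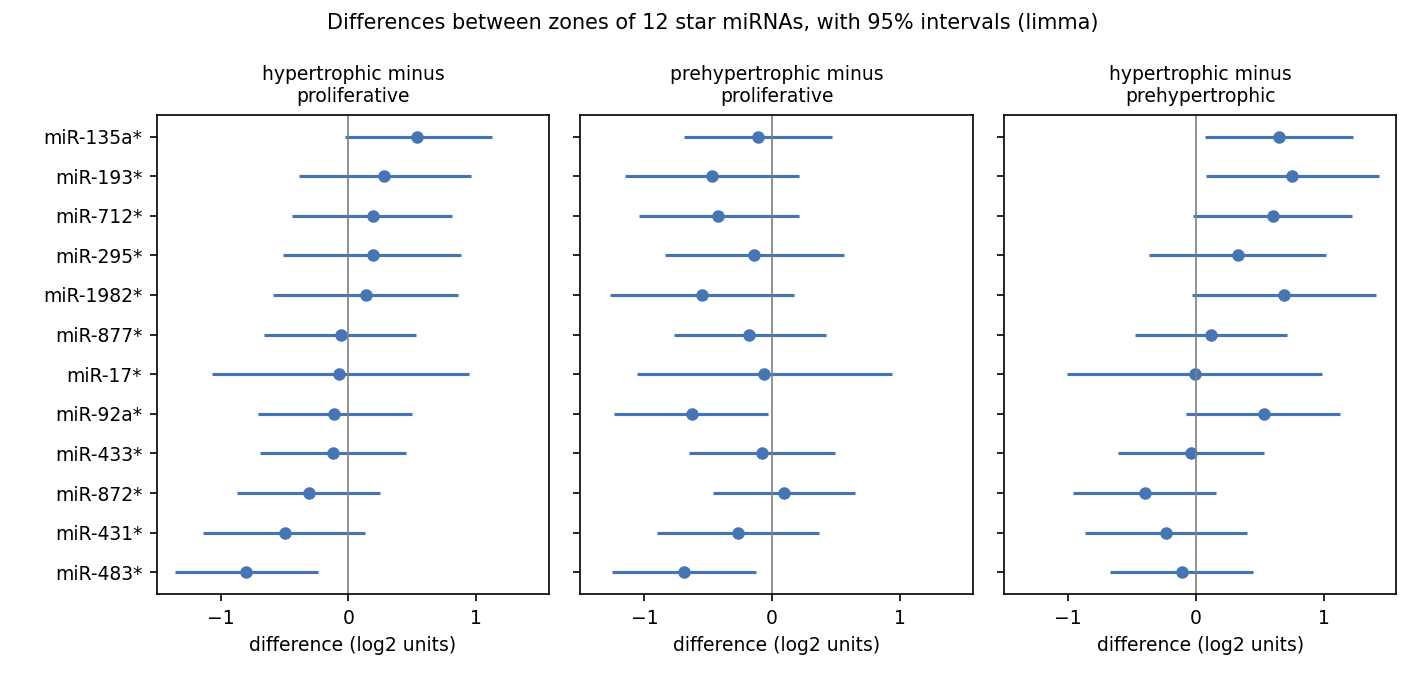
Difference in log2 scaled signal between zones for the 12 star miRNAs, in 3 panels by contrast, with 95% intervals from limma. No difference passed the adjusted threshold, and the interval of miR-483* excludes 0 in the hypertrophic minus proliferative panel, from -1.36 to -0.24. Unadjusted intervals also exclude 0 for miR-483* and miR-92a* in the prehypertrophic minus proliferative panel. In the hypertrophic minus prehypertrophic panel those of miR-135a* and miR-193* do so.

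The star miRNA with the smallest p-value was miR-483*. It stood at 5.43 and 5.51 on the proliferative, 4.66 and 4.90 on the prehypertrophic and 4.77 and 4.56 on the hypertrophic arrays (log2 scaled signal). Both proliferative arrays lay above the other 4, and the other zones overlapped. The means of these zones were 5.47 ± 0.06, 4.78 ± 0.17 and 4.66 ± 0.15 in that order (SD, n = 2 each). The difference from the proliferative zone was -0.80 log2 units in the hypertrophic zone (SE 0.25, limma adjusted p = 0.0534) and -0.69 in the prehypertrophic zone (SE 0.25, limma adjusted p = 0.242), so neither passed. The spread between the 10 spots of its probe within an array was 0.12 to 0.18 (SD of log2 signal). Over 17 other settings the first difference was -0.91 to -0.32, with adjusted p-values of 0.0234 to 0.262, and it passed in 2 of them. One of these was the fit with the run of title numbers as a block (adjusted p = 0.0267). The other probe of miR-483* was well above background on no array and stood over the floor only on the proliferative arrays, at 3.70 and 3.79. With the slide row as a block the difference between the outer zones was -0.76 (adjusted p = 0.089).

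Its main arm, miR-483, had a smaller difference. The brightest probe of miR-483 stood at 4.29 and 4.40 on the proliferative, 4.07 and 4.08 on the prehypertrophic and 4.26 and 4.04 on the hypertrophic arrays, so the proliferative pair lay highest by a narrow margin. Its difference between the hypertrophic and proliferative zones was -0.19 log2 units (SE 0.25, limma adjusted p = 0.734). The change of miR-483* minus that of miR-483 was tested with limma on the difference between strands per array, over 17 hairpins with both strands tested. It was -0.61 log2 units (SE 0.15, 95% interval -1.01 to -0.22, adjusted p = 0.0495), so the star strand fell relative to its main arm, at the edge of the threshold. In this test 4 of the 17 hairpins passed (23.5%). The call held in 4 of 17 other settings, with differences of -1.17 to -0.23 over the 17. Limma adjusted p-values ran from 0.03 to 0.191 where all arrays were kept. The 4 were the 75th percentile of all probes, median scaling, no scaling and 2 times the floor. An array's scaling factor cancels in a difference between its strands, so these scalings gave -0.61 again. With 2 times the floor all values of miR-483 lay under it, and -0.75 was the difference of miR-483* alone. These settings were thus no independent check of the call. The call was lost without any one of the 6 arrays and with the run of title numbers as a block (limma adjusted p = 0.0616). All 6 values of miR-483 lay above the floor of 3.66 but near it, at 4.04 to 4.40. The part of this low signal in the difference between the strands was not tested.

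The arm difference of miR-483* was smaller in the other contrasts. It was -0.42 log2 units between the prehypertrophic and proliferative zones (adjusted p = 0.175), where 1 of the 17 hairpins passed (5.88%), and -0.19 between the hypertrophic and prehypertrophic zones (adjusted p = 0.407), where 2 of 17 passed (11.8%). Summed levels of marker miRNAs also differed between the zones. The summed level of 8 blood and marrow miRNAs, of which 5 were well above background on no array, was 6.68 to 6.75 on proliferative, 6.85 to 6.91 on prehypertrophic and 8.35 to 8.49 on hypertrophic arrays (log2 of summed scaled signals, each at least at the floor). The summed level of 2 endothelial miRNAs, of which 1, miR-126-5p, was on no array well above background, was 4.66 in the first 2 zones and 5.56 to 5.90 in the hypertrophic zone. The summed level of 5 skeletal muscle miRNAs, of which 4 were above background on no array, was 7.64 to 7.66, 7.35 to 7.68 and 7.25 to 7.28 in the 3 zones. That of the 6 cartilage miRNAs was 12.67 to 13.34, 12.74 to 12.76 and 11.94 to 12.27, lowest in the hypertrophic zone. The part of such cells in the values of miR-483* was not tested.

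In the other hairpins with both strands tested, no difference between the strands passed. miR-92a* stood at 6.36 and 6.72 on the proliferative, 5.80 and 6.01 on the prehypertrophic and 6.64 and 6.22 on the hypertrophic arrays. Both prehypertrophic arrays lay below the other 4. Its main arm miR-92a lay between 8.94 and 9.28 on all arrays, with the prehypertrophic pair at both ends of that range. Between the first 2 zones miR-92a* differed by -0.63 log2 units (SE 0.27, limma adjusted p = 0.33) and miR-92a by -0.07 (adjusted p = 0.947). The strands differed by -0.56 in that change (95% interval -1.20 to 0.08, adjusted p = 0.208). From the prehypertrophic to the hypertrophic zone they differed by 0.58 (95% interval -0.07 to 1.22, adjusted p = 0.192), and between the outer zones by 0.02 (-0.63 to 0.66). miR-92a can come from either of its loci, whereas the star name may stand for 1 of them.

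For miR-712* and miR-712 the differences had the same sign in each contrast. miR-712* stood at 4.62 and 4.75 on the proliferative, 3.96 and 4.57 on the prehypertrophic and 4.76 and 4.97 on the hypertrophic arrays, with the prehypertrophic pair lowest. miR-712 stood at 5.34 and 6.09, 4.81 and 5.73, and 6.09 and 6.00 on these arrays, where the proliferative range overlapped that of both other zones. From the prehypertrophic to the hypertrophic zone the star strand differed by 0.60 and the main arm by 0.78 log2 units, neither passing (limma adjusted p of miR-712 = 0.275). The change of the star strand minus that of the main arm was -0.17 (95% interval -0.93 to 0.58, adjusted p = 0.692). Intervals of this width do not show that the strands move alike.

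Several other star miRNAs had their lowest mean in the prehypertrophic zone. miR-193* stood at 4.30 and 4.71 on the proliferative arrays, at the floor of 3.66 and at 4.41 on the prehypertrophic arrays and at 4.87 and 4.71 on the hypertrophic arrays. Its difference from the prehypertrophic to the hypertrophic zone, 0.75 log2 units (SE 0.31, unadjusted p = 0.0323 by limma), rests in part on the floor of the first prehypertrophic array. With the slide row as a block it was 1.17 (limma adjusted p = 0.155), and over all 17 alternatives the adjusted p was 0.0998 to 0.936. miR-135a* stood at 4.14 and 4.47 on the proliferative, 4.16 and 4.23 on the prehypertrophic and 4.99 and 4.71 on the hypertrophic arrays. The 5 spots of its probe within an array differed by an SD of 0.09 to 1.37 (log2 signal, median 0.21). Both hypertrophic arrays lay above the other 4, with differences of 0.65 from the prehypertrophic (SE 0.26, limma adjusted p = 0.255) and 0.54 from the proliferative zone (SE 0.26, limma adjusted p = 0.224). Over other settings that second difference was -0.09 to 1.02, with adjusted p-values of 0.0255 to 0.693, negative with normexp background correction. It passed only without scaling, where the median of all miRNAs shifted by 0.48.

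miR-1982* (5.22 and 5.88, 4.82 and 5.17, 6.03 and 5.34 on the proliferative, prehypertrophic and hypertrophic arrays) was also lowest in the prehypertrophic zone. It differed by 0.69 log2 units from there to the hypertrophic zone (SE 0.33, unadjusted p = 0.0601 by limma). miR-295* stood at 4.88 and 5.64, 4.85 and 5.39, and 5.52 and 5.38 on the same arrays, and its zones overlapped. In miR-872* the hypertrophic arrays, at 6.13 and 5.92, lay below the proliferative (6.24 and 6.43) and prehypertrophic ones (6.49 and 6.37). The difference of miR-872* was -0.31 between the outer zones and -0.40 at the second step, and neither passed.

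miR-877* stood at 4.90 and 5.34 on the proliferative, 4.80 and 5.08 on the prehypertrophic and 5.12 and 4.99 on the hypertrophic arrays, and all zones overlapped. miR-433* lay between 4.23 and 4.6 on all 6 arrays, with zone means of 4.54, 4.46 and 4.42. miR-431* lay at the floor on both hypertrophic arrays and on the second prehypertrophic array, and stood at 3.90 and 4.43 on the proliferative and 4.13 on the first prehypertrophic array. It entered the test only through the proliferative zone, so a lower value elsewhere is in part given by that choice. The fitted difference between the outer zones was -0.50 log2 units (SE 0.29, limma adjusted p = 0.328) and did not pass. Without the second proliferative array it was -0.24, and over 16 other settings it ran from -0.79 to 0, with adjusted p-values of 0.177 to 1. The floor leaves the spread of miR-431* in the hypertrophic zone unmeasured.

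Of the 12, miR-17* had the widest spread between the arrays of a zone, at 4.12 and 5.50 on the proliferative, 4.36 and 5.14 on the prehypertrophic and 5.15 and 4.33 on the hypertrophic arrays. Its zone means of 4.81, 4.75 and 4.74 differed by far less than the SDs of 0.97, 0.55 and 0.58 (n = 2 each). Its second probe, also well above background on all 6 arrays, varied less, at 4.47 and 5.23, 4.64 and 4.88, and 4.66 and 4.43. The spots of its probe within an array differed by an SD of 0.11 to 0.30, below the SDs between the arrays of each zone.

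The sign of the difference between the arrays of a zone was shared by most star miRNAs. The runs of title numbers are not called batches by any label. The array of the second run was the higher one for 11 of the 12 star miRNAs in the proliferative pair, 9 in the prehypertrophic pair and 10 in the hypertrophic pair, by medians of 0.38, 0.26 and 0.21 log2 units. Over all 226 miRNAs tested it was higher for 54.9%, 67.7% and 54.4%, with medians of 0.11, 0.11 and 0.06. Among the 31 main arms tested it was higher for 4, 21 and 7, with medians of -0.60, 0.04 and -0.28. The medians of the star miRNAs and of the main arms thus lay on opposite sides in the proliferative and hypertrophic pairs. Among the 31, however, only miR-483, miR-712 and miR-92a were partners of the 12 star miRNAs. The other main arms belong to hairpins whose star miRNA did not enter the test, so these medians do not compare the strands of a hairpin. The part of the run in any zone difference was not tested apart from the fit with the run as a block. Within the runs, 8 of the 12 star miRNAs were lower in the prehypertrophic than in the proliferative zone in both runs and 0 higher in both, a sign that depends on the scaling as given above. Between the outer zones 4 were higher and 4 lower in both runs, and from the prehypertrophic to the hypertrophic zone 7 and 2. miR-483* differed between the hypertrophic and proliferative zones by -0.87 and -0.74, and miR-135a* by 0.57 and 0.51.

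**Figure D5:**
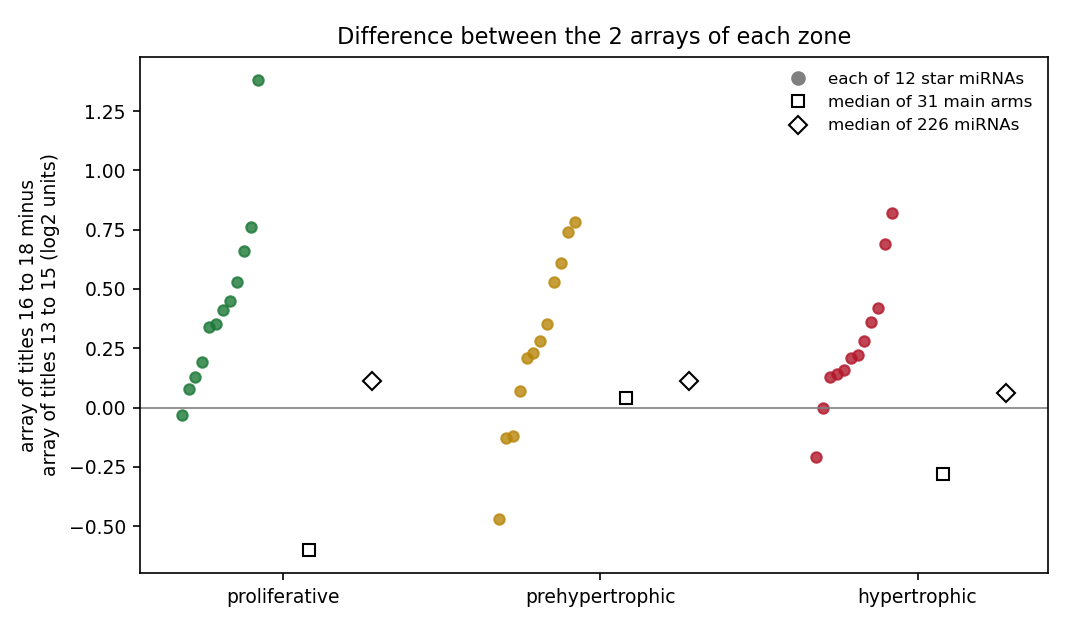
Difference in log2 scaled signal between the 2 arrays of each zone, taken as the array with title number 16 to 18 minus that with 13 to 15, for each of the 12 star miRNAs (points), with the medians of 31 main arms (squares) and of 226 miRNAs (diamonds). Most points lie above 0 in each zone, up to 1.38 for miR-17*, and the median of the main arms lies at -0.60 in the proliferative zone.

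Where a main arm changed over the zones, its star strand could not be followed. Of the 31 main arms tested, 2 were higher and 5 lower in the hypertrophic than in the proliferative zone, 1 was higher in the prehypertrophic than in the proliferative zone, and 0 passed between the hypertrophic and prehypertrophic zones by limma (2 at an unadjusted p under 0.05). All 7 changed main arms had a star strand that was well above background on no array. miR-22 rose from 7.07 and 6.81 on the proliferative to 8.31 and 8.45 on the hypertrophic arrays (1.44 log2 units, limma adjusted p = 0.00381), while miR-22* reached at most 1.74 on any array, under the floor of 3.66. miR-21, an injury-responsive miRNA, rose by 1.75 log2 units (limma adjusted p = 0.00628), while miR-21* reached at most 3.29. The rise of miR-21 rests in part on the floor, where its second proliferative array lay. The main arms that fell were miR-127, miR-154 and miR-382 of the Dlk1-Dio3 region, miR-15b of the miR-15 family and miR-196a, a Hox cluster miRNA, with differences of -1.78 to -1.01. Of these, miR-154 lay at the floor on both hypertrophic arrays, so its spread there was not measured. The star strands miR-127*, miR-154*, miR-15b*, miR-196a* and miR-382* stayed at or under 3.1. Whether these strands followed their main arms was not detectable on these arrays.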

How the data were processed

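Per the labels, RNA of 6 samples was hybridised to Agilent mouse miRNA arrays. The authors' scans were read with Feature Extraction 10.7.3.1, per the file headers, whose deposited processed signal is a background-subtracted intensity on a linear scale. The authors' deposited log2 table matched, within 1.3e-06, the log2 of Feature Extraction's total signal for each miRNA (at least 1) less an array constant. Its column medians ran from -4.943 to -4.254. It served as an alternative.

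Control and outlier spots were left out. Spots of a probe were averaged, and arrays were scaled to the 75th percentile of 342 probes well above background on all arrays. Signals under 12.7 scaled units (3.66 on the log2 scale) were set to that floor, and the probe with the highest mean log2 signal stood for each miRNA. Zones were compared with limma 3.58.1 in R 4.3.3 on all 6 arrays (3 residual and 7.83 prior degrees of freedom, 1.45 prior for strand differences), adjusted by Benjamini-Hochberg within each contrast. The fits were tested on simulated data. The number of arrays limits the precision. All star miRNAs tested are named, and those passing a zone or strand test are given array by array with the main arm. Beyond that rule, values of other members were chosen after they were seen. The members and lists were chosen with earlier results of these data known. Normexp used median signals, not the planned mean signals. Star names were carried to RefSeq arm names by hand for 91 of 99.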

Additional observations from a re-analysis of the deposited data

How the results depend on the processing

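The 0 calls among star miRNAs between the hypertrophic and proliferative zones became 1 with quantile normalization (miR-483*), 1 without scaling (miR-135a*) and 1 with the run of title numbers as a replicate block (miR-483*). Leaving out an array leaves 1 array in its zone. The star miRNA called in such fits was miR-30b*, without the second proliferative array. It then entered the test through the first alone, the only array where it was well above background. Its other arrays lay at the floor, so this call was given by that choice and is not a result. Between the hypertrophic and prehypertrophic zones the star calls numbered 0 under all 17 alternatives. Over these alternatives the calls among all miRNAs ranged from 1 to 46, 0 to 14 and 1 to 5 in the 3 contrasts and from 1 to 32 in the F test. The 1 strand difference called between the outer zones (miR-483*) became 0 with quantile normalization, normexp, the mean over probes, the deposited table, the slide row as a block and the replicate block. It was also lost when any array was left out. Without a filter on dim miRNAs miR-483* did not pass (limma adjusted p = 0.0685), and 2 others were called (miR-183* and miR-22*). There limma warned of many variances of 0. Both of these star strands were well above background on no array, and miR-22* lay under the floor on every array. The call of miR-22* was thus the change of its main arm alone, and miR-183* could likewise not be followed. In the prehypertrophic minus proliferative contrast the count of strand differences went from 0 to 1 with 2 times the floor (miR-483*). All values of miR-483 then lay under the floor, so this difference of -0.69 was that of miR-483* alone. The causes of the other changes were not tested. With the looser flag for a positive and significant signal, star miRNAs above background on both arrays numbered 30, 28 and 35 from the proliferative to the hypertrophic zone. In 79 of 609 refits an uncalled difference of a star miRNA changed sign. Relative to the scaling used, the median of all miRNAs shifted by up to 0.12 with the 75th percentile of all probes, 0.14 with median scaling, 0.10 with quantile normalization and 0.48 without scaling. The detection rule by the flag per miRNA was added after the data were seen and stayed within 1.5 times, and signal over background limits all values near the floor.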
